A study of Danio rerio with 4 samples.

Results

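The SoxB1 and SoxE genes are transcription factor genes of the Sox family, whose proteins bind DNA through a domain called the HMG box. SoxB1 genes are expressed in the early neural plate and hold neural progenitors in an undifferentiated state. SoxE genes act in the neural crest, the migratory cells that leave the dorsal neural tube and give rise to pigment cells, peripheral neurons and glia, and much of the head skeleton. Neither class is a marker of heart muscle. A total of 9 zebrafish genes were chosen by name, namely sox1a, sox1b, sox2, sox3, sox19a and sox19b of the SoxB1 class and sox9a, sox9b and sox10 of the SoxE class, out of 25873 gene IDs in the table. The name sox2, sox3, sox10, sox19a or sox19b each led to 1 ID. The other 4 genes were found only as 2 IDs named SOX1 and 2 IDs named SOX9. Which ID of a pair is the a copy and which the b copy is not given in the tables used here, so these 4 are called by their ID.

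The RNA came from zebrafish embryos of a laboratory strain carrying Tg(nkx2.5:ZsYellow), at the stage of 14 to 16 somites. In this line regulatory sequence of nkx2.5, a homeobox gene of heart and pharyngeal precursors, drives the fluorescent protein ZsYellow. Dissociated embryos were sorted by fluorescence into positive cells, which the labels call cardiopharyngeal progenitors and cardiomyocytes, and negative cells of the same embryos, with 2 libraries of each. Both groups carry the transgene, and a positive cell is defined by the fluorescence of the reporter protein. The comparison asks how the levels of these genes differ between the reporter-positive fraction and the rest of the embryo. The labels do not say whether replicates came from separate clutches or sorts, so p-values measure the spread between these libraries, which may be technical. Libraries with the same replicate number are not stated to be pairs, and the main test did not pair them.

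Library totals ran from 31996733 to 40133331 counts. The sort labels were checked on nkx2.5, listed as NKX2-5, which had 425.6 and 513.5 CPM (counts scaled to library size) in positive libraries against 5.75 and 5.77 CPM in negative ones. All 9 matched cardiopharyngeal transcription factor genes were called higher in the positive fraction, and their median change was 2.85 on the log2 scale. Of all 19084 genes tested, 9.02% were called higher and 8.07% lower in positive cells, together 17.1%, by edgeR's quasi-likelihood test at a Benjamini-Hochberg adjusted p under 0.05. The positive libraries differed from each other unevenly. Positive replicate 1 was at least 1.5 times above replicate 2 for 2871 genes and at least 1.5 times below it for 1324.

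SoxB1 RNA was lower in ZsYellow-positive cells, and no SoxB1 or SoxE gene was called higher. Of the 9 genes, all of which passed the filter on low counts, 4 were called lower, each of them a SoxB1 gene: sox19a, sox3, sox2 and SOX1 (ENSDARG00000069866). That count of 4 stands beside the 8.07% of all genes tested that were called lower. The 3 SoxE genes were not called. By edgeR 0 of the 9 were called higher, against 9.02% of all genes tested, and a count of 0 among 9 genes is near that share. The count was also 0 at an unadjusted p under 0.05 and by DESeq2 and limma. At an unadjusted edgeR p under 0.05, 5 of the 9 were lower, against 14.5% of all genes tested. For 6 of the 9 genes the positive libraries were both below the negative ones, against 30.3% of all genes tested. For 0 of the 9 they were both above, against 27.9%. In bulk RNA a smaller number of expressing cells and less RNA per cell cannot be told apart.

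**Figure D1:**
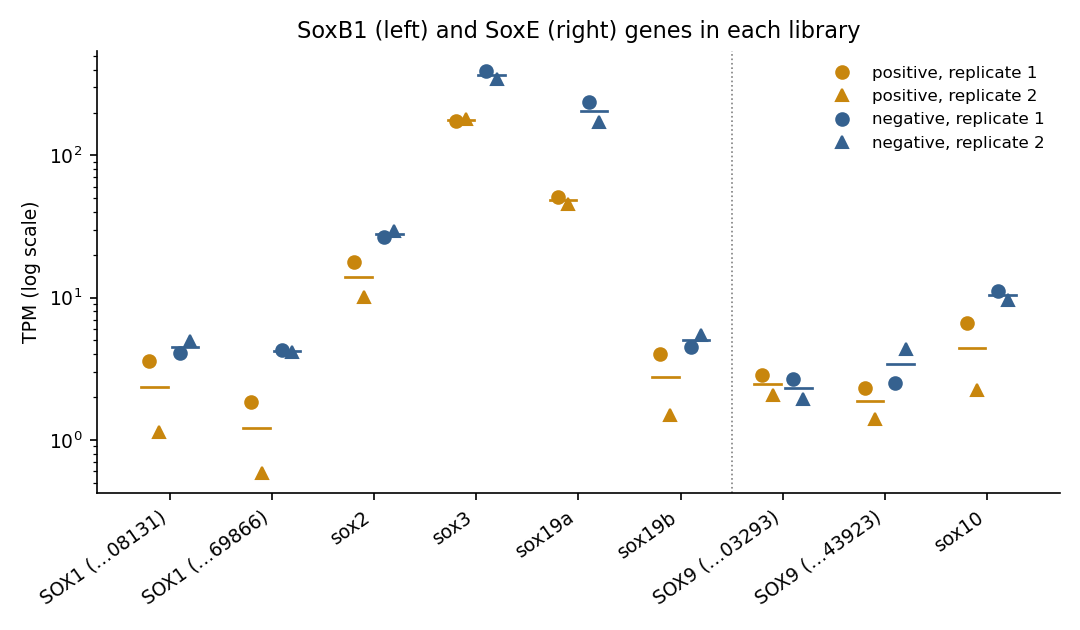
TPM (transcript abundance scaled to a fixed total) on a log axis for each of the 9 genes in each library; circles are replicate 1, triangles replicate 2, orange positive cells, blue negative cells, and short lines the group means. The positive libraries lie below the negative ones for sox3, sox19a and sox2, and positive replicate 2 is the lowest point of most of the scarcer genes.

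In zebrafish sox19a (ENSDARG00000010770) is a SoxB1 gene of the early embryo and neural plate. It had 2761 and 2853 counts, or 88.6 and 72.6 CPM, in positive cells and 13209 and 10056 counts, or 366.8 and 297.4 CPM, in negative cells. All positive values lay far below all negative values, and neither pair was spread as widely as the groups were apart. The log2 fold change was -2.04 (standard error 0.199, 95% interval -2.49 to -1.59, adjusted edgeR p 0.000217), so that positive cells held 24.3% of the negative level.

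The most abundant of the genes was sox3 (ENSDARG00000053569), which in zebrafish marks neural progenitors and also the otic and epibranchial placodes, the thickened ectoderm that forms the ear and cranial sensory ganglia. Its counts were 7467 and 8896 in positive and 17276 and 16155 in negative cells, or 239.7 and 226.3 CPM against 479.7 and 477.8 CPM. These were the tightest replicates among the 9 genes in both groups, and the groups did not overlap. The log2 fold change was -1.04 (standard error 0.171, 95% interval -1.43 to -0.65, adjusted edgeR p 0.00323), which leaves 48.7% of the negative level in positive cells. The 95% intervals of sox3 and sox19a do not overlap. The log2 ratio of sox19a to sox3 TPM, a ratio chosen after the values were seen, was -1.77 and -1.97 in positive cells and -0.72 and -1.01 in negative cells. A comparison of 2 against 2 libraries on a single value is too small for a permutation test to reach the threshold, so this ratio is given without a test.

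The pluripotency and neural progenitor gene sox2 (ENSDARG00000070913) had 905 and 596 counts in positive and 1410 and 1644 in negative cells, or 29.1 and 15.2 CPM against 39.2 and 48.6 CPM. The positive libraries lay below the negative ones, but positive replicate 1 was 1.92 times replicate 2. The log2 fold change was -0.99 (standard error 0.288, 95% interval -1.64 to -0.34, adjusted edgeR p 0.0457), close to the threshold. It was -0.59 and not called without positive replicate 2. The call was also lost on leaving out negative replicate 1 (-1.14) or negative replicate 2 (-0.82), where the spread came from the positive pair alone.

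Sox1 proteins are also neural progenitor factors, and the 2 IDs named SOX1 were both scarce. SOX1 (ENSDARG00000069866) had 87 and 32 counts in positive and 209 and 215 in negative cells, or 2.79 and 0.814 CPM against 5.80 and 6.36 CPM. The negative libraries were close together and both stood above the positive ones, of which replicate 1 was 3.43 times replicate 2. Its log2 fold change was -1.77 (standard error 0.484, 95% interval -2.87 to -0.67, adjusted edgeR p 0.0359). The call was lost without negative replicate 1 (-1.83) and without negative replicate 2 (-1.69), where the spread came from the positive pair alone. Leaving out positive replicate 1 moved it to -2.87 and leaving out positive replicate 2 to -1.12, both called.

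SOX1 (ENSDARG00000008131) had 155 and 57 counts in positive and 181 and 234 in negative cells, or 4.98 and 1.45 CPM against 5.03 and 6.92 CPM. Positive replicate 1 was almost level with negative replicate 1, and positive replicate 2 was far below both negative libraries. Its log2 fold change of -0.91 (standard error 0.491, 95% interval -2.02 to 0.21, adjusted edgeR p 0.26) did not pass. It was -2.01 and called without positive replicate 1 (adjusted p 3.76e-06) and -0.26 without positive replicate 2. Within a library the log2 TPM ratio of the 2 IDs, ENSDARG00000008131 over ENSDARG00000069866, was 0.97 and 0.96 in positive cells and -0.07 and 0.25 in negative cells. The ratio was therefore alike in the positive libraries although both genes differed more than 3-fold between them.

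The remaining SoxB1 gene, sox19b (ENSDARG00000040266), is supplied to the zebrafish egg by the mother and is later expressed in neural tissue. Its values were 8.35 and 2.85 CPM in positive and 8.33 and 11.4 CPM in negative cells, from 260, 112, 300 and 384 counts. Positive replicate 1 was level with negative replicate 1, so the groups overlapped. The log2 fold change was -0.82 (standard error 0.435, 95% interval -1.81 to 0.17, adjusted edgeR p 0.248). Leaving out positive replicate 1 gave -1.76 and a call (adjusted p 1.89e-06), and leaving out positive replicate 2 gave -0.24.

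Levels can be compared between genes only per transcript length, and on the TPM scale the SoxB1 genes spanned a wide range. In negative cells the mean was 369.1 ± 33.0 TPM for sox3, 204.9 ± 47.5 TPM for sox19a and 28.1 ± 1.89 TPM for sox2 (SD, n = 2). The order was the same in positive cells, at 176.9 ± 3.57, 48.5 ± 3.88 and 13.9 ± 5.39 TPM (SD, n = 2). Among these genes neighbouring ranges did not overlap in either group. Below them came sox10, at 10.4 ± 1.12 TPM in negative and 4.44 ± 3.11 TPM in positive cells (SD, n = 2). The other 5 genes had means between 2.31 and 5.0 TPM in negative cells and between 1.21 and 2.77 TPM in positive cells. Among those 5 the range of each overlapped that of the next in order in both groups, and in positive cells sox10 also overlapped sox19b.

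The summed TPM of the 6 SoxB1 genes was 252.8 and 238.5 in positive and 670.6 and 561.2 in negative cells. Almost all of it came from sox3 and sox19a, in unequal parts between the groups. The share of sox3 was 69.0% and 75.2% in positive and 58.5% and 61.6% in negative cells. For sox19a the share was 20.3% and 19.2% in positive and 35.6% and 30.5% in negative cells. Neither share overlapped between the groups. Because sox3 and sox19a made up almost all of the sum, their shares are tied to each other and are not separate results. The share of sox2 did overlap, at 6.99% and 4.22% against 3.99% and 5.25%.

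**Figure D2:**
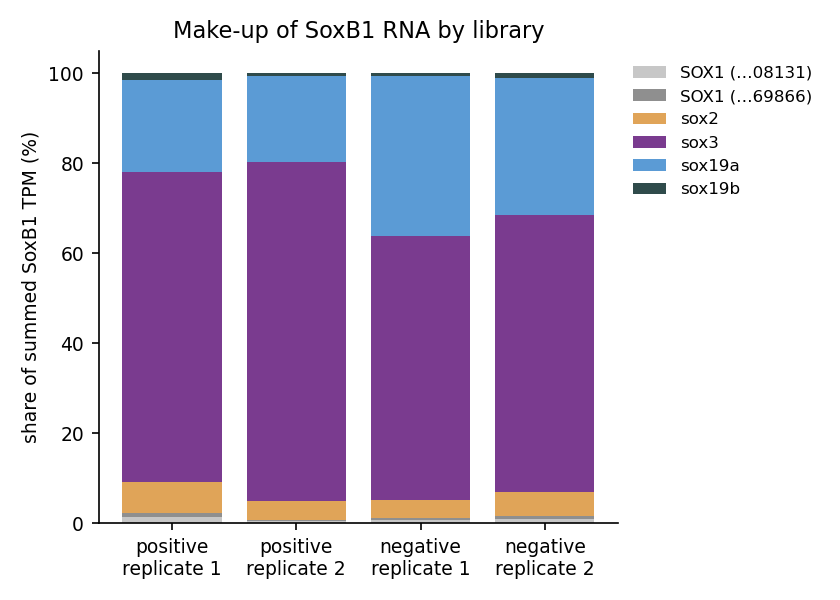
Share of the summed SoxB1 TPM, in percent, taken by each of the 6 SoxB1 genes in each library. The sox3 part is larger and the sox19a part smaller in both positive libraries than in both negative ones.

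SoxE RNA was scarcer than SoxB1 RNA. Of the 3 SoxE genes 0 were called by the main edgeR fit, DESeq2 or limma, against 17.1% of all genes tested by edgeR. A count of 0 among 3 genes is near that share. At an unadjusted edgeR p under 0.05, 1 of the 3 was lower, against 14.5% of all genes tested. The summed TPM of the 3 SoxE genes was 11.9 and 5.72 in positive and 16.4 and 15.9 in negative cells. The largest contributor, sox10 (ENSDARG00000077467), maintains neural crest progenitors and is needed for pigment cells and peripheral glia. It had 545 and 213 counts in positive and 941 and 855 in negative cells, or 17.5 and 5.42 CPM against 26.1 and 25.3 CPM. The negative libraries nearly coincided, and both positive libraries were lower but differed 3.23-fold from each other. The log2 fold change of -1.17 (standard error 0.434, 95% interval -2.15 to -0.19, adjusted edgeR p 0.103) did not pass after adjustment. Without positive replicate 1 it was -2.22 and called (adjusted p 1.49e-12), and without positive replicate 2 it was -0.55 and not called. With 1 positive library left, the spread is estimated from the negative pair alone. With every library kept, edgeR called sox10 lower without the low-count filter (-1.15, adjusted p 0.0411). It was also called lower by edgeR with a block for replicate number (-1.39, adjusted p 0.00469).

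Sox9 proteins act in crest specification, in the otic placode and above all in cartilage, where they activate collagen genes. SOX9 (ENSDARG00000043923) had 6.58 and 3.64 CPM in positive and 6.30 and 12.2 CPM in negative cells, from 205, 143, 227 and 414 counts. The groups overlapped, and negative replicate 2 was 1.94 times negative replicate 1, the widest gap of the 9 genes in that pair. Its log2 fold change was -0.86 (standard error 0.381, 95% interval -1.73 to 0.00, adjusted edgeR p 0.166). It was called lower without positive replicate 1 (-1.32, adjusted p 0.000454), and its value was -0.49 without positive replicate 2 and -0.30 without negative replicate 2.

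The other ID, SOX9 (ENSDARG00000003293), had 3.79 and 2.65 CPM in positive and 3.33 and 2.69 CPM in negative cells, from 118, 104, 120 and 91 counts. The groups overlapped almost completely. A log2 fold change of 0.09 (standard error 0.317, adjusted edgeR p 0.887) came with a 95% interval from -0.63 to 0.81, which holds changes in either direction. Its sign turned with upper-quartile factors (-0.01), without positive replicate 1 (-0.16) and without negative replicate 2 (-0.04). The log2 TPM ratio of this ID to ENSDARG00000043923 was 0.30 and 0.56 in positive and 0.10 and -1.19 in negative cells. Whether the SoxE genes differ from the SoxB1 genes in their response was not tested.

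**Figure D3:**
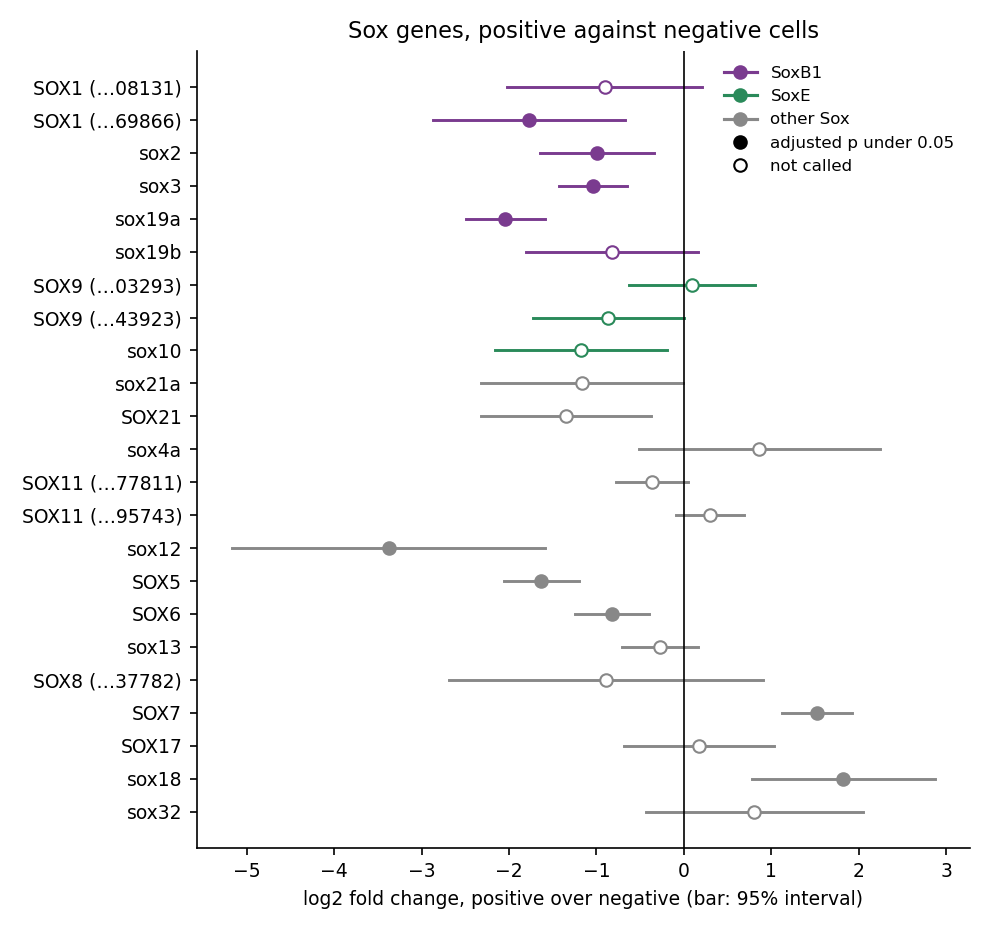
Log2 fold change, positive over negative cells, with its 95% interval for the SoxB1 genes (purple), SoxE genes (green) and other tested Sox genes (grey); filled points passed an edgeR adjusted p under 0.05. The 4 filled SoxB1 points lie left of 0, and the SoxE points are open.

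All 9 genes had a higher CPM in positive replicate 1 than in positive replicate 2, and for 6 of them the gap was at least 1.5-fold. Of all 19016 genes tested with a count in both libraries, 9626 were higher in replicate 1, and 15.1% had such a gap in that direction. The log2 ratio of replicate 1 to replicate 2 was 1.78 for each SOX1 ID, 1.69 for sox10 and 1.55 for sox19b. Between 2.03% and 2.95% of all genes had a ratio at least as large as those. It was 0.94 for sox2, 0.86 for SOX9 (ENSDARG00000043923) and 0.52 for SOX9 (ENSDARG00000003293). The abundant genes sox19a and sox3 differed least, by 0.29 and 0.08, and in TPM sox3 was slightly higher in replicate 2. The negative pair showed no such common direction, and 1 of the 9 genes was 1.5-fold apart there. Without positive replicate 1 the log2 fold change was -2.22 for sox10 and -1.05 for sox3, and without positive replicate 2 it was -0.55 and -1.0. Leaving out negative replicate 1 or 2 gave -1.15 and -1.18 for sox10 and -1.04 and -1.03 for sox3. Each such fit leaves 1 library in a group, so its calls rest on the spread of the other group's pair alone. The part of this spread in the results for the 9 genes was not tested.

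**Figure D4:**
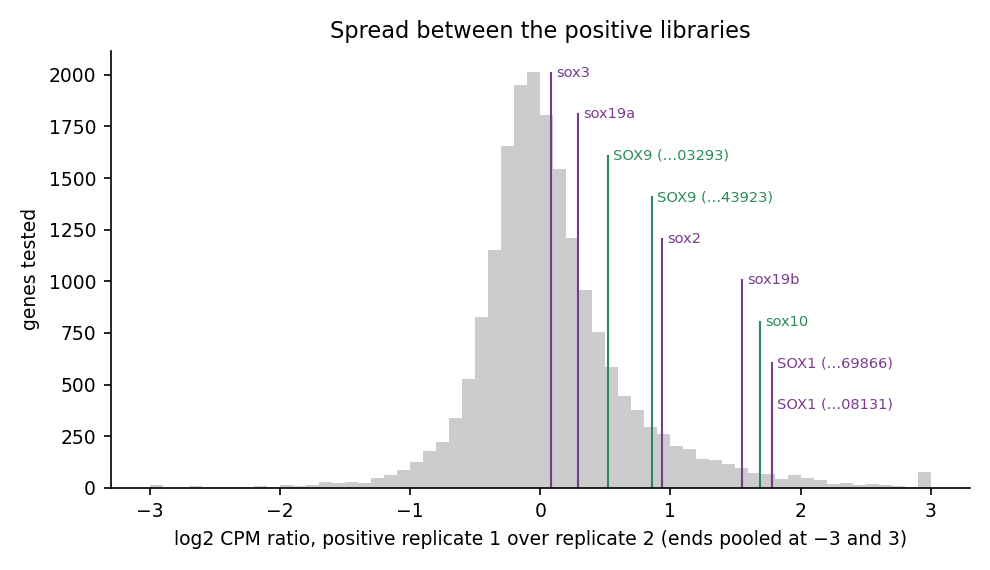
Distribution over genes tested of the log2 CPM ratio of positive replicate 1 to positive replicate 2, with the SoxB1 genes (purple lines) and SoxE genes (green lines) marked. All 9 lie right of 0, from 0.08 for sox3 to 1.78 for the SOX1 IDs.

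The gap between the positive libraries had the same direction in most other genes of neural cells, but its size varied. Replicate 1 was above replicate 2 for 9 of 9 neurogenesis genes and 12 of 16 neural plate genes. The same held for 16 of 18 neural crest specification genes and 6 of 7 Pou and geminin genes. For the Sox genes sox21a and SOX21, outside the 9, the log2 ratio was 2.07 and 1.59. The median log2 ratio of replicate 1 to replicate 2 was 0.94 over the 9 genes. Over 9 neurogenesis genes it was 0.22, over 16 neural plate genes 0.37, over 18 neural crest specification genes 0.44 and over 7 Pou and geminin genes 0.82. Over all genes it was 0.01. The direction was not confined to neural lists. Replicate 1 was also above replicate 2 for 7 of 8 epidermal, 8 of 10 somite and presomitic and 5 of 7 notochord genes. The same held for 6 of 9 cardiopharyngeal factors and 3 of 4 cartilage genes, but only 3 of 7 otic and placode genes. The median was 0.27 for epidermal, 0.52 for notochord and -0.04 for otic and placode genes.

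Other Sox genes moved in both directions. The SoxE class also holds Sox8, which was not among the 9 chosen genes and is counted here. Of 14 other Sox genes tested, 2 were called higher, 3 lower and 9 were not called, and their median log2 fold change was -0.32, against -0.01 for all genes tested. The SoxF genes SOX7 and sox18, which act in blood vessel formation, were the ones called higher. SOX7 had 495.2 and 568.1 CPM in positive and 187.5 and 183.0 CPM in negative cells, with a log2 fold change of 1.52 (standard error 0.178, adjusted edgeR p 0.000538). For sox18 the values were 26.4 and 8.37 against 5.44 and 4.35 CPM, and its log2 fold change of 1.82 (adjusted p 0.0259) was lost by limma on log2(TPM + 1) (adjusted p 0.0682) and on leaving out negative replicate 1 or 2 (adjusted p 0.118 and 0.179).

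The SoxD gene SOX5, a partner of Sox9 in cartilage, had 33.5 and 31.0 CPM in positive and 112.5 and 87.5 CPM in negative cells, and its log2 fold change was -1.63 (standard error 0.189, adjusted edgeR p 0.000511). SOX6, of the same group, was lower by less, at -0.82 (adjusted p 0.0155), and that call was lost by limma (adjusted p 0.207) and on leaving out negative replicate 1 or 2 (adjusted p 0.128 and 0.0609). The third decrease, in sox12, rested on 2 and 2 counts against 31 and 13. It was lost by limma (adjusted p 0.179) and on leaving out negative replicate 1 (adjusted p 0.208).

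The SoxB2 genes are relatives of SoxB1 that act as repressors in neural tissue. The gene sox21a had 15.9 and 3.79 CPM in positive and 21.7 and 22.2 CPM in negative cells and was not called (-1.16, adjusted p 0.162). SOX21 had 7.96 and 2.65 against 12.4 and 14.4 CPM and was not called either (-1.35, adjusted p 0.0639), though it was under 8 of the 13 alternatives, among them DESeq2 (adjusted p 0.0104) and limma on log2(TPM + 1) (adjusted p 0.0479). The abundant SoxC genes, named SOX11, had log2 fold changes of -0.36 and 0.30 (adjusted p 0.214 and 0.289).

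Genes of neural tissue, where SoxB1 factors act, were compared next. Of 16 neural plate and regional neural genes tested, 12 were called lower and 1 higher, with a median log2 fold change of -1.78. Of 9 neurogenesis genes 7 were called lower and 0 higher, with a median of -1.71. Of those 9, 0 were higher at an unadjusted p under 0.05 or by DESeq2 or limma. The SoxB1 median was -1.02 over its 6 genes. The early neural factor ZIC2 (ENSDARG00000015554) had 35.7 and 20.3 CPM in positive and 152.0 and 138.2 CPM in negative cells (-2.37 on the log2 scale, adjusted edgeR p 0.000411).

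The proneural gene neurog1 had 9.05 and 8.45 CPM in positive and 34.0 and 44.2 CPM in negative cells (-2.16 on the log2 scale, adjusted edgeR p 0.000209), and the Notch ligand gene dlb had 16.8 and 14.5 against 62.4 and 60.9 CPM (-1.98, adjusted p 0.000142). Positive cells thus held 22.4% of the negative level of neurog1, near the 24.3% of sox19a. The 48.7% of sox3 and 50.3% of sox2 were higher. The 95% interval of sox3 did not overlap that of neurog1, the largest decrease of its list, or those of dlb and NEUROD4. It did overlap those of the other neurogenesis genes tested, such as ELAVL3 (-1.75 to -0.95). GBX2, a gene of the anterior hindbrain, went the other way, with 116.3 and 164.2 CPM in positive and 55.9 and 43.7 CPM in negative cells (1.49, adjusted p 0.00186).

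Pou proteins bind DNA together with SoxB1 proteins, and geminin, the product of GMNN, restrains DNA replication and neural differentiation. Of these 7 genes 4 were called lower and 0 higher, with a median of -1.29, and 0 were higher at an unadjusted p under 0.05 or by DESeq2 or limma. The largest decreases were those of pou5f3, the zebrafish relative of mammalian Oct4, at 7.0 and 3.97 CPM against 22.1 and 22.9 CPM (log2 fold change -2.04, adjusted edgeR p 0.00133), and pou3f1 (-1.98, adjusted p 0.00115). POU3F2 (-1.55) and pou3f3b (-1.25) were the other genes called lower. GMNN was not called, with 212.0 and 168.6 CPM in positive and 111.3 and 216.3 CPM in negative cells.

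Of 18 neural crest specification genes, 9 were called lower by edgeR and 13 by DESeq2, and 2 were called higher by each. The median was -1.32. FOXD3, an early crest regulator, had 10.4 and 4.68 CPM in positive and 32.8 and 25.2 CPM in negative cells (-1.95 on the log2 scale, adjusted edgeR p 0.00488). TFAP2A, which is needed for crest induction, had 35.2 and 27.4 against 128.1 and 122.0 CPM (-2.0, adjusted p 0.000194). These 2 genes were chosen after their values were seen. By edgeR 7 genes of the list were not called, among them ETS1 (-0.08, adjusted p 0.806) and twist1b (-0.17, adjusted p 0.577). The summed CPM of the 18 genes, PRDM1 included, was 808.8 and 745.6 in positive and 821.4 and 786.1 in negative cells.

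By the rule for naming genes, the largest decreases were those of PAX3 (ENSDARG00000010192) at -2.5 and PAX7 (ENSDARG00000070818) at -2.08 (adjusted edgeR p 0.000427 and 0.00208), both expressed in dorsal neural tube and somites as well. The genes called higher were PRDM1, with 375.9 and 400.4 CPM in positive and 102.0 and 92.7 CPM in negative cells (2.0, adjusted p 0.000128), and snai1b (0.78, adjusted p 0.0155). Both are also expressed outside the crest. The call of snai1b was lost without negative replicate 1 (0.66, adjusted p 0.142) or negative replicate 2 (0.92, adjusted p 0.0536).

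Genes of crest derivatives were scarce. Of 9 matched genes 6 were tested, with 3 called lower and 1 higher and a median of -1.49. TFEC, of early pigment cell lineages, had 4.56 and 2.88 CPM in positive and 15.4 and 10.9 CPM in negative cells (-1.83 on the log2 scale, adjusted edgeR p 0.00341), and erbb3b, of crest glia, was also called lower (-1.75, adjusted p 0.00898). KIT, which is also expressed in blood precursors, was the gene called higher (1.4, adjusted p 0.0151), and that call was lost by limma (0.89, adjusted p 0.0515) and without negative replicate 2 (1.17, adjusted p 0.131). The myelin gene mbpa had 0 counts in every library.

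Cartilage matrix genes, which Sox9 activates later in development, gave 1 gene called lower and 1 higher. Of 8 matched genes 5 were tested. COL11A1, a cartilage collagen, had 34.7 and 14.5 CPM in positive and 60.4 and 72.9 CPM in negative cells (-1.44 on the log2 scale, adjusted edgeR p 0.0208). Its call was lost without negative replicate 1 (-1.57, adjusted p 0.0697) and without negative replicate 2 (-1.29, adjusted p 0.137). The matrix link protein gene hapln1a, which is also expressed in the heart, was higher, at 295.8 and 470.3 against 122.0 and 88.7 CPM (1.86, adjusted p 0.00142).

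Since sox3 and sox9 genes are also expressed in placodes, genes of the otic and other placodes were counted. Of 7 tested, 3 were called higher and 3 lower, with a median of -0.26. The epibranchial and otic competence gene foxi1 had 119.2 and 122.7 CPM in positive and 26.2 and 31.6 CPM in negative cells (a log2 change of 2.07, SE 0.18, adjusted edgeR p 0.000123). PAX8, dlx4b and DLX3 were lower, at -1.74, -1.56 and -1.37. PAX8 was not called without negative replicate 2 (-1.56, adjusted p 0.0536).

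**Figure D5:**
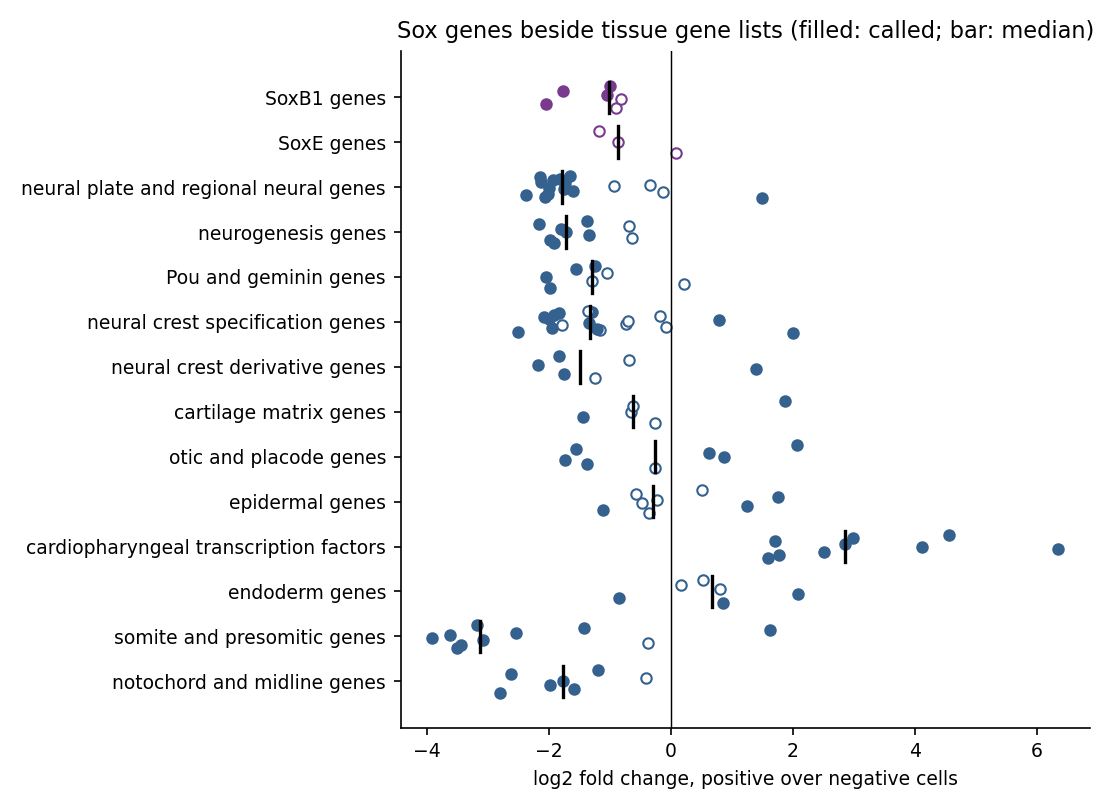
Log2 fold change, positive over negative cells, of each tested gene in the SoxB1 and SoxE classes (purple) and in tissue gene lists (blue), with filled points called at an edgeR adjusted p under 0.05 and a black bar at each median. The SoxB1 median of -1.02 lies between those of the presomitic list, -3.12, and of all genes, -0.01.

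Genes of other embryonic tissues gave the range within which the SoxB1 values fell. Somite and presomitic genes had a median of -3.12, with 8 of 10 called lower and ALDH1A2 (1.63), a retinoic acid synthesis gene, higher, and positive cells held 6.64% of the negative level of the segmentation gene her1. Notochord and midline genes had a median of -1.77, with 6 of 7 called lower. Epidermal genes had a median of -0.29, with krt8 (1.76) and krt18a.1 (1.25) called higher of 8 and krt4 (-1.12) lower. Endoderm genes had a median of 0.67, with NKX2-3 (2.09) and FOXA2 (0.85) called higher of 6 and foxa3 (-0.86) lower. The calls of NKX2-3 and FOXA2 were lost by limma on log2(TPM + 1) and without either negative library, that of NKX2-3 also without positive replicate 1, that of krt4 without negative replicate 1 and that of foxa3 without negative replicate 2. The summed CPM of the 9 matched neurogenesis genes was 181.6 and 155.0 in the positive and 496.9 and 485.2 in the negative libraries. For somite and presomitic genes the sums were 451.4 and 386.3 against 1420.7 and 1518.7. For notochord and midline genes they were 89.6 and 67.6 against 294.5 and 322.1. The sums of the other neural and crest lists differed less than those of neurogenesis genes. They were 636.8 and 755.6 against 1251.4 and 1221.9 for neural plate genes. The largest part of these CPM sums in every library was CDH2, at 247.8 and 338.6 against 347.8 and 293.6 CPM. CPM does not allow for transcript length. On the TPM scale GBX2 had 69.89 and 107.59 in the positive libraries, where CDH2 had 60.83 and 90.65. In the negative libraries ZIC2 (ENSDARG00000037178) had 98.65 and 94.96 TPM, where CDH2 had 96.01 and 72.03. For Pou and geminin genes the sums were 281.3 and 217.2 against 282.1 and 383.0, with GMNN the largest part. The medians given above weigh each gene alike. For neural crest specification genes the sums were 808.8 and 745.6 against 821.4 and 786.1. PRDM1 alone gave 375.9 and 400.4 CPM of the positive sums and 102.0 and 92.7 CPM of the negative sums. Of the 18 genes in that list, 16 had a log2 fold change below 0. The part of these lists in the SoxB1 results was not tested.

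The genes whose CPM over the 4 libraries lay closest to that of a class were found by the distance between centred log2 values, among 9033 named genes with a mean of at least 10 CPM. For the summed SoxB1 CPM they were APLNR, crestin and tfdp2, at distances of 0.029, 0.0725 and 0.0838. The closest, APLNR, had 7.42 and 6.36 CPM in positive and 17.8 and 17.2 CPM in negative cells. The neural crest transcript crestin had 20.2 and 16.6 CPM in positive and 47.4 and 42.7 CPM in negative cells. For tfdp2 the values were 40.8 and 34.9 against 102.6 and 88.6 CPM. For the summed SoxE CPM they were CNPY1, cyt1l and cyt1, at 0.164, 0.23 and 0.302, and the last 2 encode type I cytokeratins of the skin. For CNPY1 the values were 29.3 and 13.6 against 38.1 and 40.0 CPM. Each distance rests on 4 libraries.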

How the data were processed

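The authors deposited 1 table with, per the file headers, a whole-number count and a log2(TPM + 1) value per gene and library. The deposited counts were treated as estimated counts, because 20 entries had a count of 0 beside a TPM above 0; they were whole already. The recovered TPM was used only for levels per length. The submitters' processing notes name BWA 0.7.12-r1039, bedtools 2.25.0.64 and Salmon 1.2.1 and the builds Zv9, danRer7, GRCz11 and danRer11, without saying which made this table, and no coordinates are given. Use of strand is not given in the sources used here. Per the labels' protocols, about 50 ng of RNA entered a poly(A)-primed low-input kit with paired reads of 50 nt. No molecular identifiers are mentioned, so counts may include PCR copies.

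Positive and negative libraries were compared with edgeR 4.0.16 in R 4.3.3 (quasi-likelihood F test, TMM factors, filterByExpr with a minimum count of 10 and total of 15), and p-values were adjusted by Benjamini-Hochberg over 19084 genes. The fit was also run on simulated counts, with a spread set by the trend over all genes. These counts lack the wider spread of particular genes between the positive libraries, so they do not bear on the calls of the 9 members. Standard errors are the size of the change over the root of F. CPM used TMM-scaled library sizes. Within the positive and negative pairs, 61.5% and 60.3% of genes with at least 100 counts differed beyond sampling noise, so no library was a copy. Names came from an ID-to-symbol table and, for synonyms, RefSeq names of assembly GRCz12tu; 23599 IDs had a name, and 141 of 165 list entries were matched. An entry such as sox9a was accepted as a set where its unlettered name had as many IDs as RefSeq has copies. Members, lists and tests were chosen with earlier results of these data known. Named genes are the 9 members, the 2 called list genes of largest change in each direction and the 3 closest genes by pattern; a few others are given as such. Alternatives were other scaling factors, filters, DESeq2 1.42.0, limma 3.58.1 on log2(TPM + 1) and log2(TPM + 0.1), a block for replicate number, each library left out, and an adjusted p under 0.01. A few list genes named by this rule are not reported here.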

Additional observations from a re-analysis of the deposited data

How the results depend on the processing

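The genes sox19a and sox3 were called lower under each of the 13 alternatives, with log2 fold changes from -2.18 to -1.89 and from -1.14 to -1.0. For sox2 the values ran from -1.50 to -0.59, with 4 alternatives not called, and for SOX1 (ENSDARG00000069866) from -2.87 to -1.12, with 3 not called. For sox10 they ran from -2.22 to -0.55, and it was called without the low-count filter (adjusted p 0.0411). SOX9 (ENSDARG00000003293) ran from -0.16 to 0.33 and was -0.0063 with upper-quartile factors, -0.16 without positive replicate 1 and -0.04 without negative replicate 2. SOX17 (0.17) ran from -0.32 without positive replicate 2 to 0.557 without positive replicate 1. The cartilage list's median (-0.61) was 0.0418 without positive replicate 2, 0.0288 without negative replicate 1 and -1.5739 without positive replicate 1. The threshold of 0.01 gave 966 genes higher and 784 lower, and 2 of the 9 members lower. Leaving out 1 library gave 852 to 2446 genes higher, 747 to 1846 lower, and 2 to 8 members lower. The summed TPM then ran from 238.5 to 252.8 for SoxB1 and 5.72 to 11.9 for SoxE in positive cells, and from 561.2 to 670.6 and 15.9 to 16.4 in negative cells. Upper-quartile factors moved the median of all genes to -0.11 and no member's call. Shared replicate numbers are not stated to pair the samples, and same-numbered samples did not deviate together (correlation -0.09). With the replicate block 1762 genes were higher and 1561 lower, and 5 members were lower, sox10 among them (-1.39, adjusted p 0.00469). The part of depth in the results for the scarce SOX1 and SOX9 IDs was not tested.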
